A study of Mus musculus with 12 samples.

Results

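The genes described here are 10 members of the fibroblast growth factor (FGF) family, Fgf3, Fgf4, Fgf5, Fgf8, Fgf9, Fgf10, Fgf13, Fgf15, Fgf17 and Fgf18, followed through mouse gastruloids grown inside hydrogels. They were taken by gene symbol from 55141 genes of the count table, and all 10 had reads. Gastruloids are aggregates of mouse embryonic stem cells (mESCs, here the 129/svev line) that elongate and form germ layers and an axis in culture. Each was seeded with 300 cells and given 3 µM CHIR 99021, a Wnt agonist, from 48 h for 24 h. The 4 groups of 3 libraries were embedded in dextran gel of 1.0 mM at 72 h, of 1.0 mM at 96 h, of 1.5 mM at 72 h and of 1.5 mM at 96 h. All were collected at 120 h, after the gel had been dissolved enzymatically. Each library therefore holds RNA of several pooled whole gastruloids, those embedded at 72 h spent longer in the gel, and the age at embedding and the time in the gel cannot be told apart. Gastruloids without a gel were not analysed here.

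FGFs are secreted signals that bind receptor tyrosine kinases together with heparan sulfate, and the bound receptor activates the RAS and ERK cascade, which induces ETV transcription factors and its own inhibitors of the Sprouty and DUSP families. In the early embryo they drive exit from pluripotency, the gastrulation movements of mesoderm and the growth of the tail bud, and a posterior FGF gradient sets where somites form. The secreted members here belong to the FGF8 subfamily (Fgf8, Fgf17, Fgf18), the FGF4 subfamily (Fgf4, Fgf5), the FGF7 subfamily (Fgf3, Fgf10), the FGF9 subfamily (Fgf9) and the endocrine subfamily (Fgf15). Fgf13 is an intracellular FGF homologous factor that binds sodium channels and microtubules and is not a receptor ligand.

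Embedding at 72 h rather than 96 h went with less Fgf4 and Fgf18 and more Fgf10, and the 2 gel concentrations gave no call for any member. The upstream sequences of these 3 genes are shown because their levels set the embedding times apart in every library. Each is the 250 bases before the RefSeq start on GRCm38.p6 (the mm10 build of the files), written 5′ to 3′ on the strand of the gene, with matches to the GC box word GGGCGG or its complement CCGCCC in capitals. Fgf4 (chr7:144861136-144861385, plus strand), Fgf10 (chr13:118714449-118714698, plus strand) and Fgf18 (chr11:33147401-33147650, minus strand) read as follows.
Fgf4: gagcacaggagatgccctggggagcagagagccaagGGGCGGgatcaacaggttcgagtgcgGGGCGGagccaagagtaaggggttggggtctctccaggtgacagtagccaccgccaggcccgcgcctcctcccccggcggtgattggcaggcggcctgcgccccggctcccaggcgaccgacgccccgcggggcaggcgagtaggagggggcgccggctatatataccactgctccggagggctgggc
Fgf10: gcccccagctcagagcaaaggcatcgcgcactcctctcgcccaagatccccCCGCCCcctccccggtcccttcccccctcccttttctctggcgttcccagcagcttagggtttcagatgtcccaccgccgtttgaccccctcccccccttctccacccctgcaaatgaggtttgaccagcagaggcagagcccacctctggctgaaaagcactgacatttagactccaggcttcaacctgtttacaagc
Fgf18: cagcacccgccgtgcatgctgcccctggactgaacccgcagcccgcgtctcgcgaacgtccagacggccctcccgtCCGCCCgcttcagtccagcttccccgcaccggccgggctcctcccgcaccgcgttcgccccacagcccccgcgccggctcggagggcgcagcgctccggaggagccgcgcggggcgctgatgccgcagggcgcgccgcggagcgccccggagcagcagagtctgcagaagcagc
The 3 windows were rich in G and C, with 71.2% for Fgf4, 61.2% for Fgf10 and 77.2% for Fgf18, against a median of 52.4% over all 32851 RefSeq windows of this length. The GC box word occurred in all 3 of them, 2 times for Fgf4, and in 32.7% of all windows. None of the 3 held the TCF/LEF words CTTTGAT or CTTTGAA (found in 7.48% of windows), the T-box word AGGTGTGA (1.12%) or the TATA word TATAAA (12.4%) on either strand. Only these exact words were searched, and the Fgf4 window holds the stretch tatatata near its 3′ end, which TATAAA does not match. A window was found for 7 of the 10 members, and among the other 4 of these the Fgf3 window held the TCF/LEF word TTCAAAG, read on the opposite strand, 198 bases before the start. The GC box word also occurred among these 4, for Fgf5 and in some of the windows of Fgf13, but not for Fgf3 or Fgf9.

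In mm10, Fgf3 (chr7:144838083-144844436), Fgf4 (chr7:144847367-144865243) and Fgf15 (chr7:144896531-144900953) lie on the plus strand within 62.9 kb of chromosome 7. The gap between Fgf3 and the annotated Fgf4 span is 2.9 kb, and the gap between Fgf4 and Fgf15 is 31.3 kb. The Fgf4 window printed above lies inside that span, as the RefSeq start used for it is downstream of the annotated start. The remaining members stand alone: Fgf5 on chromosome 5, Fgf8 on 19, Fgf9 and Fgf17 on 14, Fgf10 on 13, Fgf18 on 11 and Fgf13 on X. All are protein coding. Antisense genes overlap Fgf10 (Gm16263, 21 counts over the 12 libraries against 8528 for Fgf10) and Fgf15 (Gm26793, 61 counts against 1005), and the strand setting of the counting is not given in the sources used here.

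Libraries held 23011791 to 27609422 counts, of which 1.68% to 3.02% fell on mitochondrial genes. The ribosomal RNA gene CT010467.1 took 1.04% to 2.67% of counts in the libraries of the 72 h, 1.0 mM group and 0.207% to 0.672% in those of the 96 h, 1.0 mM group. It was highest in 1 library of the 72 h, 1.5 mM group (6.12%, replicate 1) and 1 of the 96 h, 1.5 mM group (4.21%, replicate 2). Its part in the differences between groups was not tested beyond leaving out both of these libraries.

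Fgf8 was the most abundant of the 10 genes. On the length-corrected FPKM scale (fragments scaled to transcript length and library depth), it averaged 13.3 ± 1.96 (SD, n = 12) and was above Fgf10, at 5.54 ± 2.59, in all 12 libraries. Fgf10 was in turn above Fgf15 in all 12. The next genes did not separate: Fgf15 (1.47 ± 0.926), Fgf13 (1.43 ± 0.474), Fgf5 (1.37 ± 0.405) and Fgf3 (1.13 ± 0.739) each exceeded the gene that follows in only 6 to 8 of 12 libraries. Fgf4 (0.627 ± 0.507), Fgf17 (0.443 ± 0.259), Fgf18 (0.317 ± 0.270) and Fgf9 (0.285 ± 0.0704) were lowest by the mean over all libraries, and each of the first 3 of these was above its neighbour in 5 to 9 of 12 libraries. These means pool the embedding times, and at 96 h Fgf4 averaged 1.24 FPKM in 1.0 mM gels, beside 1.20 for Fgf13 and 0.573 for Fgf3, and 0.885 FPKM in 1.5 mM gels, beside 0.769 for Fgf3. The order of Fgf15, Fgf13 and Fgf5 changed when medians were used instead of means.

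**Figure D1:**
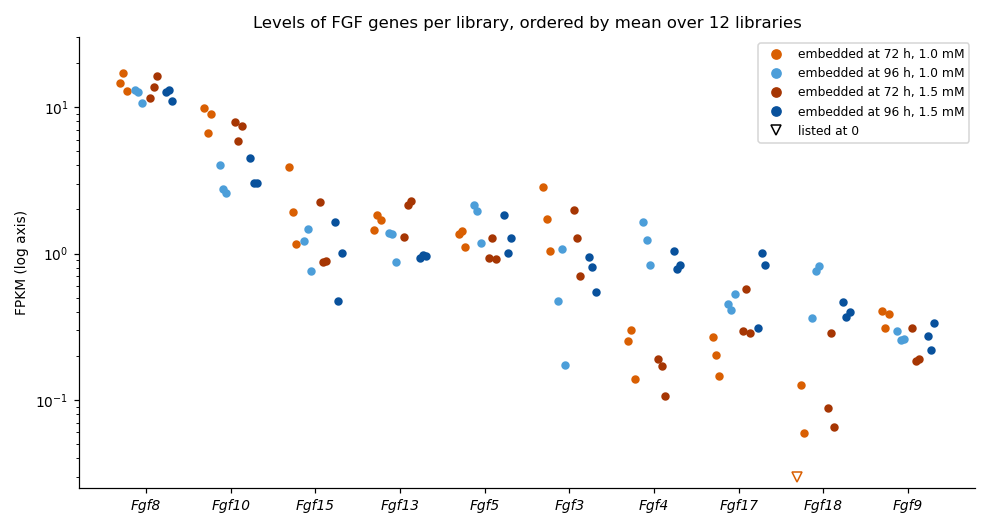
Level of each FGF gene in each of the 12 libraries, in FPKM on a log axis, ordered by the mean over libraries and colored by group. Within each library Fgf8 and Fgf10 lie above the other 8 genes, although over libraries the range of Fgf10 overlaps those of Fgf15 and Fgf3, Fgf4 and Fgf18 spread over about a decade or more with the 96 h libraries on top, and the library where Fgf18 is listed at 0 is drawn as an open triangle.

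The makeup of the secreted members shifted with embedding time mainly through Fgf10. Of the summed FPKM of the 9 secreted members, Fgf10 made up 28.8% ± 6.23 (SD, n = 3) at 72 h and 14.6% ± 2.42 at 96 h in 1.0 mM gels. Its share in 1.5 mM gels was 27.5% ± 3.40 at 72 h and 16.4% ± 2.26 at 96 h. Fgf8 held 50.3% to 58.0% in the group means. The sum itself was 29.8 ± 3.81 FPKM against 21.3 ± 3.16 FPKM in 1.0 mM gels, and 25.5 ± 1.28 against 21.3 ± 2.21 FPKM in 1.5 mM gels, each at 72 h against 96 h. These shares are a description and carry no test.

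The effect of embedding time was tested within each gel and across both gels, with edgeR's quasi-likelihood test and Benjamini-Hochberg adjustment over all genes. Differences are log2 fold changes of 72 h over 96 h. A gene passed with an adjusted p below 0.05 and counted as differentially expressed (DE) when the log2 fold change was also beyond 1. Across both gels 6 of the 10 members passed, 3 higher at 72 h (Fgf10, Fgf3 and Fgf13) and 3 lower (Fgf4, Fgf18 and Fgf17), where 31.1% of the 16388 genes tested did (16.2% of the genes were higher and 14.8% lower). Of these, 4 were DE (Fgf4, Fgf18, Fgf10 and Fgf3), against 4.66% of genes. In 1.0 mM gels 3 members passed, all DE (9.24% of genes passed and 4.30% were DE). In 1.5 mM gels 3 passed and 1 of them was DE (19.3% of genes passed and 3.18% were DE). CPM values are counts scaled to the library total without mitochondrial genes, adjusted by TMM factors. Those of the 2 embedding times did not overlap for 6 of 10 members in 1.0 mM gels, where 28.4% of genes were so separated. The same held for 4 of 10 in 1.5 mM gels (39.9%), and for 3 of 10 over all libraries (11.8%). The median log2 fold change of the 10 members across both gels was 0.25, and that of all genes was -0.01. The RNA came from whole gastruloids, so fewer cells of a type and less RNA per cell cannot be told apart in any of these differences.

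**Figure D2:**
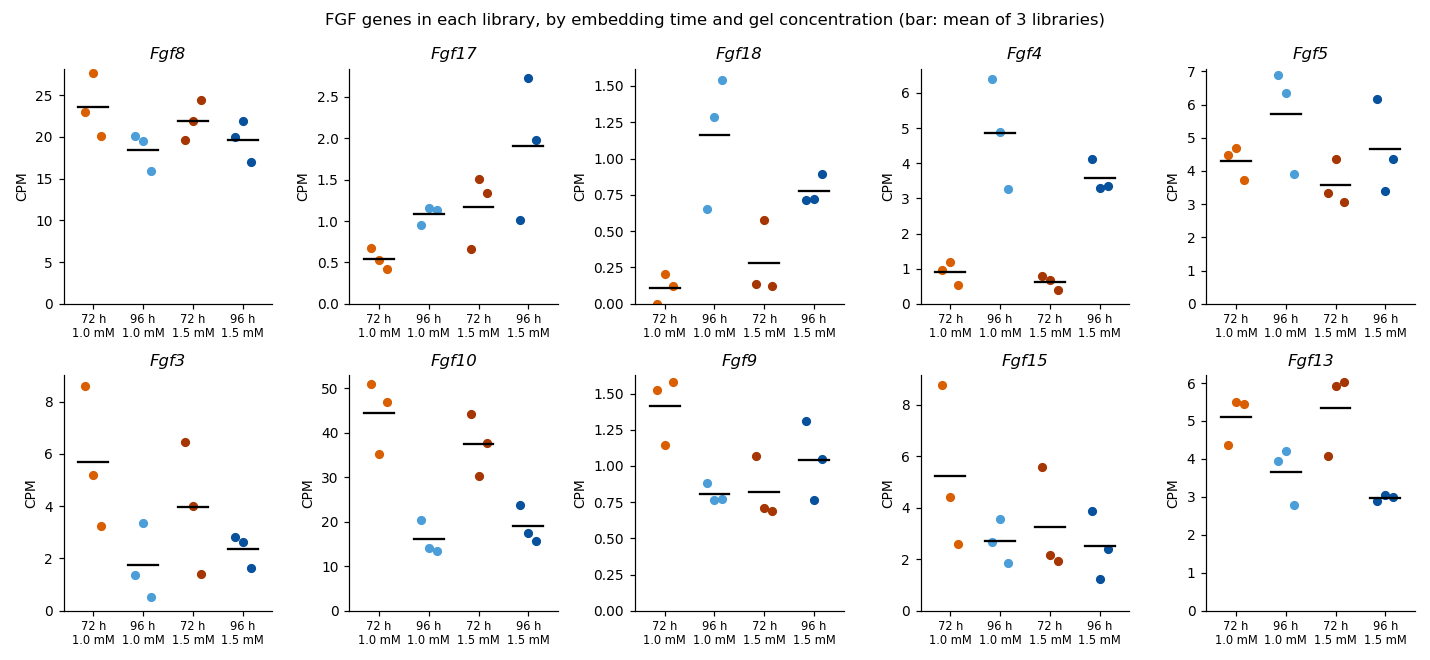
CPM of the 10 FGF genes in each library, with a panel for each gene, a point for each library and a bar at the mean of the 3 libraries of a group. Fgf4 and Fgf18 are low and Fgf10 is high in every library embedded at 72 h, whereas Fgf8, Fgf5 and Fgf15 overlap between embedding times.

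Fgf4, which primes pluripotent cells for differentiation, fell on embedding at 72 h with the smallest adjusted p of the 10 members across both gels. In 1.0 mM gels its CPM was 0.974, 1.18 and 0.541 at 72 h and 6.40, 4.89 and 3.27 at 96 h. In the 1.5 mM gels it was 0.799, 0.667 and 0.405 at 72 h and 4.12, 3.29 and 3.35 at 96 h. All 6 libraries embedded at 72 h lay below all 6 embedded at 96 h. The 72 h levels rest on few counts, 13 to 29 per library in 1.0 mM gels and 10 to 18 in 1.5 mM gels. The log2 fold change was -2.42 ± 0.33 (SE) in 1.0 mM gels (edgeR adjusted p = 0.00129) and -2.53 ± 0.27 in 1.5 mM gels (edgeR adjusted p = 0.00145). Across both gels it was -2.47 ± 0.22 (edgeR adjusted p = 2.44e-06), which is 0.181 times the 96 h level. The call held in all 3 fits under every alternative tried.

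Fgf5, the other member of the FGF4 subfamily and a marker of the post-implantation epiblast, did not pass. It ranged from 3.08 to 4.69 CPM at 72 h and from 3.41 to 6.89 CPM at 96 h, with overlap in both gels. Its log2 fold change across both gels was -0.39, with a 95% interval of -0.75 to -0.03 (edgeR adjusted p = 0.0919). It passed under 3 alternatives, without the filter on low counts (edgeR adjusted p = 0.0474) and without replicate 3 of the 96 h, 1.0 mM group or replicate 2 of the 96 h, 1.5 mM group.

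Fgf18, of the FGF8 subfamily and expressed in somites and limb, also fell, at very low counts. In 1.0 mM gels it had 0, 5 and 3 counts at 72 h and 17, 32 and 42 counts at 96 h. With 1.5 mM gels it had 3, 13 and 3 counts at 72 h and 19, 18 and 23 at 96 h. The embedding times did not overlap, and the library with 0 counts allows a level of up to 0.127 CPM, for counting error only. Fgf18 passed the filter on low counts through the 96 h libraries, where it was high. Among the 72 h libraries alone it was too low to be tested. The log2 fold change was -3.33 ± 0.62 in 1.0 mM gels (edgeR adjusted p = 0.00681) and -1.49 ± 0.52 in 1.5 mM gels, where it missed the threshold (edgeR adjusted p = 0.0746). Without replicate 2 of the 72 h, 1.5 mM group, the library with 13 counts, the 1.5 mM value was -2.56 (edgeR adjusted p = 0.0189). It also passed there with limma-voom (-1.76, adjusted p = 0.0406) and with edgeR without the filter on low counts (-1.49, adjusted p = 0.0333). Across both gels it was -2.30 ± 0.47 (edgeR adjusted p = 0.00215).

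Fgf17, active in the tail bud, was the third FGF8 subfamily gene. Its CPM was 0.678, 0.531 and 0.416 at 72 h and 0.957, 1.16 and 1.14 at 96 h in 1.0 mM gels. In 1.5 mM gels it was 0.666, 1.51 and 1.34 at 72 h and 1.01, 2.73 and 1.98 at 96 h. The embedding times were separate in 1.0 mM gels and overlapped in 1.5 mM gels, and neither gel alone passed (edgeR adjusted p = 0.0801 and 0.252). Across both gels Fgf17 fell by 0.83 ± 0.26 on the log2 scale (edgeR adjusted p = 0.0274). That call was lost when any of 5 single libraries was left out (replicate 3 at 72 h and 2 at 96 h in 1.0 mM gel, replicate 1 at 72 h and 2 and 3 at 96 h in 1.5 mM gel), and with both libraries rich in CT010467.1 left out the value was -0.57 (edgeR adjusted p = 0.140).

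Fgf8, the main ligand of the tail bud and presomitic mesoderm, differed little between groups. Its mean CPM was 23.5 ± 3.79 at 72 h and 18.5 ± 2.28 at 96 h in 1.0 mM gels, and 21.9 ± 2.39 and 19.6 ± 2.43 in 1.5 mM gels (SD, n = 3 each). The groups overlapped in both gels. The log2 fold change across both gels was 0.26 ± 0.10, with a 95% interval of 0.05 to 0.46 (edgeR adjusted p = 0.0571), so a change as large as that of Fgf10 lay outside the interval. The adjusted p crossed 0.05 under 7 of 20 alternatives and lay between 0.0228 and 0.127 over all of them, with DESeq2 at 0.0376.

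Fgf10, the ligand of limb, lung and second heart field mesenchyme, rose. In 1.0 mM gels its CPM was 51.0, 35.2 and 47.0 at 72 h and 20.4, 14.2 and 13.4 at 96 h. The 1.5 mM gels gave 44.3, 30.2 and 37.8 at 72 h and 23.8, 17.4 and 15.7 at 96 h. The lowest library embedded at 72 h, in either gel, stood above the highest embedded at 96 h. The log2 fold change was 1.48 ± 0.18 in 1.0 mM gels (edgeR adjusted p = 0.000583) and 0.97 ± 0.17 in 1.5 mM gels (edgeR adjusted p = 0.00722). Across both gels it was 1.22 ± 0.15 (edgeR adjusted p = 3.71e-05), or 2.34-fold, and no alternative ended any of these calls.

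Fgf3, which with Fgf10 shares the receptor FGFR2b and acts in the tail bud and ear, rose across both gels but varied widely between replicates. Its CPM was 8.60, 5.18 and 3.24 at 72 h and 1.38, 3.37 and 0.514 at 96 h in 1.0 mM gels. With 1.5 mM gels it was 6.44, 4.004 and 1.42 at 72 h and 2.81, 2.65 and 1.63 at 96 h. The embedding times overlapped in both gels, and within a gel it did not pass (edgeR adjusted p = 0.0635 and 0.286), although in 1.0 mM gels it passed under 5 alternatives, among them limma-voom (adjusted p = 0.0437) and a replicate block (edgeR adjusted p = 0.00603). Across both gels the log2 fold change was 1.22 ± 0.41 (edgeR adjusted p = 0.0334). The call was lost under 7 of 20 alternatives, which were limma-voom, leaving out both libraries rich in CT010467.1, and leaving out any of 5 single libraries (replicate 1 at 72 h and 1 and 3 at 96 h in 1.0 mM gel, replicate 1 at 72 h and 3 at 96 h in 1.5 mM gel), with adjusted p up to 0.0904. Fgf3 therefore differed in direction from its neighbor Fgf4 on chromosome 7.

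Fgf15, the third gene of that cluster and in adults an enterohepatic hormone, did not pass. Its CPM at 72 h was 8.77, 4.41 and 2.58 in 1.0 mM gels and 5.59, 2.18 and 1.95 in 1.5 mM gels. At 96 h it ranged from 1.24 to 3.86 CPM. Replicate 1 was the highest of the 3 libraries embedded at 72 h in both gels for Fgf15, Fgf3 and Fgf10, and for no other member. For Fgf10 it was also the highest at 96 h in both gels. The log2 fold change across both gels was 0.67, with a 95% interval of -0.06 to 1.41 (edgeR adjusted p = 0.152). Without the filter on low counts Fgf15 passed, at 0.68 across both gels (edgeR adjusted p = 0.000338) and 0.97 in 1.0 mM gels (edgeR adjusted p = 0.000304). The estimate across both gels hardly moved there, while its SE fell from 0.35 to 0.16.

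Fgf9, of the FGF9 subfamily, had 16 to 38 counts per library. In 1.0 mM gels its CPM was 1.52, 1.14 and 1.58 at 72 h, above the 0.881, 0.762 and 0.771 at 96 h, yet it did not pass (log2 fold change 0.82 ± 0.28, edgeR adjusted p = 0.103). In 1.5 mM gels the value was -0.35 ± 0.32 (edgeR adjusted p = 0.477). The difference between the gels was -1.16 ± 0.41 and did not pass either (edgeR adjusted p = 0.953, unadjusted p = 0.0135).

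Fgf13, the intracellular member, rose. Its CPM was 4.36, 5.51 and 5.45 at 72 h and 3.94, 4.21 and 2.79 at 96 h in 1.0 mM gels, and 4.08, 5.92 and 6.04 against 2.88, 3.05 and 3.00 in 1.5 mM gels. The embedding times were separate within each gel and overlapped over all libraries. The log2 fold change was 0.49 ± 0.21 in 1.0 mM gels (edgeR adjusted p = 0.184), 0.84 ± 0.19 in 1.5 mM gels (edgeR adjusted p = 0.0169) and 0.66 ± 0.14 across both (edgeR adjusted p = 0.00295). The 1.5 mM call was lost without any of 4 libraries (replicates 2 and 3 of either embedding time), with adjusted p up to 0.0701, and the call across both gels was not lost under any alternative.

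**Figure D3:**
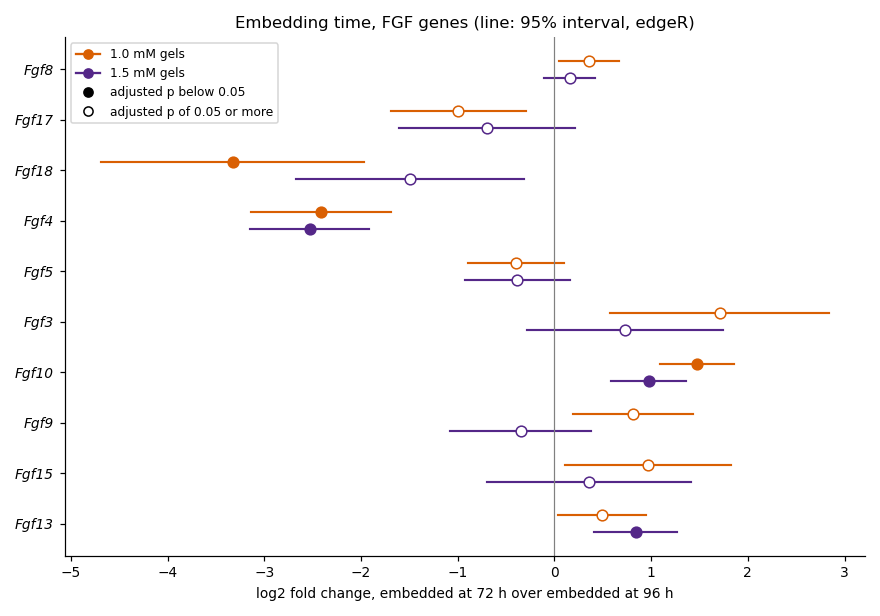
log2 fold change of embedding at 72 h over 96 h for each FGF gene, in 1.0 mM gels and in 1.5 mM gels, with 95% intervals from edgeR and filled points for adjusted p below 0.05. Fgf4 (-2.42 and -2.53) and Fgf10 (1.48 and 0.97) have filled points in both gels, and the intervals of Fgf8 are the narrowest.

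Gel concentration was compared at each embedding time and across both, as 1.5 mM over 1.0 mM. No member passed in any of the 3 comparisons with edgeR, DESeq2 or limma-voom, and of all genes 0%, 0% and 0.0305% passed with edgeR. At an unadjusted p below 0.05 there were 2 of 9 members tested at 72 h, where Fgf18 was too low to be tested (6.90% of genes), 1 of 10 at 96 h (9.95%) and 2 of 10 across both (12.7%). Fgf17 was among them each time. Its log2 fold change was 1.11 at 72 h, 0.80 at 96 h and 0.94 ± 0.26 across both, where its adjusted p with edgeR was 0.170, and 0.00795 when genes with low counts were not filtered out. The lowest values were -0.78 for Fgf9 at 72 h, -0.58 for Fgf18 at 96 h and -0.47 for Fgf4 across both.

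The intervals show the range of differences between gels that each estimate leaves possible, before adjustment over all genes. Across both embedding times those of Fgf17 (0.38 to 1.50) and Fgf4 (-0.92 to -0.02) excluded 0, yet neither gene passed. For Fgf8 the 95% interval across both embedding times was -0.21 to 0.20 on the log2 scale, and for Fgf10 it was -0.33 to 0.30. It was much wider for the scarce or variable genes, at -0.95 to 0.77 for Fgf3 and -1.06 to 0.87 for Fgf18. The effect of embedding time did not differ detectably between the gels for any member (0 of 10 with edgeR, DESeq2 and limma-voom, and 0% of all genes with edgeR). At an unadjusted p below 0.05 it differed for 1 member, Fgf9, and for 4.32% of genes. For Fgf18 the difference between gels was 1.85, with an interval of -0.17 to 3.86, and for Fgf4 it was -0.10, with an interval of -1.07 to 0.87.

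The receptors spanned a wide range of levels. Fgfr1, the mesodermal receptor, averaged 43.8 FPKM over the 12 libraries, the decoy receptor Fgfrl1 18.8, Fgfr2 7.66, Fgfr3 4.62 and Fgfr4 0.237. Of the 5 genes, 1 rose and 1 fell across both gels, near the 31.1% of all genes that passed. Their median log2 fold change was 0.17. Fgfr3, which serves FGF8 and FGF9 type ligands, rose by 1.01 ± 0.27 (edgeR adjusted p = 0.0114). Its mean CPM was 42.8 ± 15.6 at 72 h and 13.5 ± 4.44 at 96 h in 1.0 mM gels, without overlap, and 30.7 ± 10.3 and 23.7 ± 8.03 in 1.5 mM gels, with overlap (SD, n = 3). Fgfr2, which in its IIIb form binds Fgf3 and Fgf10, fell by 0.26 ± 0.07 on the log2 scale (edgeR adjusted p = 0.0112). Fgfr1 (0.14), Fgfr4 (0.88) and Fgfrl1 (0.17) did not pass.

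Of 14 other FGF and FGF-binding genes, 9 had enough counts to be tested across both gels. Of these, 1 rose and 1 fell, not above the 31.1% of all genes that passed, and the median log2 fold change was -0.20. Fgfbp1, a secreted carrier that releases FGFs from the matrix, fell by 1.85 ± 0.30 on the log2 scale (edgeR adjusted p = 0.000381), from 1.09 and 0.603 mean CPM at 96 h to 0.291 and 0.173 at 72 h, in the 1.0 mM and then the 1.5 mM gels. Fgf16, of the FGF9 subfamily, rose by 0.59 ± 0.20 (edgeR adjusted p = 0.0379). The genes that did not pass were Fgf1 (0.02), Fgf2 (-0.15), Fgf7 (-0.43), Fgf11 (0.46), Fgf14 (-0.21), Fgf20 (-0.87) and Fgfbp3 (-0.20). Fgf6, Fgf12, Fgf21, Fgf22 and Fgf23 were too low to be tested. Fgf2 and Fgf20 are listed at 0 FPKM in every library although they have 9 to 34 and 3 to 18 counts, so no FPKM level is given for them.

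Co-receptors and heparan sulfate genes, which hold FGFs at the cell surface, included 8 that rose and 3 that fell among 20 tested (median 0.09). Of all genes 31.1% passed. The largest differences among those that passed were Klb, the co-receptor of endocrine FGFs (-2.28 ± 0.61, edgeR adjusted p = 0.0115, at 0 to 22 counts per library), the glypicans Gpc4 (0.95) and Gpc6 (0.80), and Flrt2 (-0.71). The relay from receptor to ERK moved little: 8 of 17 genes rose and 1 fell (median 0.13), with Braf (0.46) and Frs3 (-0.24) the largest, then Map2k1 (0.22) and Mapk3 (0.22).

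Feedback inhibitors and ETV genes, which are transcribed downstream of ERK, comprised 13 genes, of which 8 rose and 1 fell (median 0.24). Of all genes 31.1% passed. Dusp4, an ERK phosphatase, rose by 1.297 ± 0.10 (edgeR adjusted p = 4.92e-07) and Spry4, a Sprouty inhibitor, by 1.13 ± 0.14 (edgeR adjusted p = 3.24e-05), both without overlap between the embedding times. Il17rd, or Sef (0.60), and Spred1 (0.35) followed. The only one that fell was Spry1 (-0.32). Dusp6, a common readout of FGF signaling, was at -0.02 with a 95% interval of -0.19 to 0.14. Spry1 and Dusp6 were picked out after their values were seen.

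**Figure D4:**
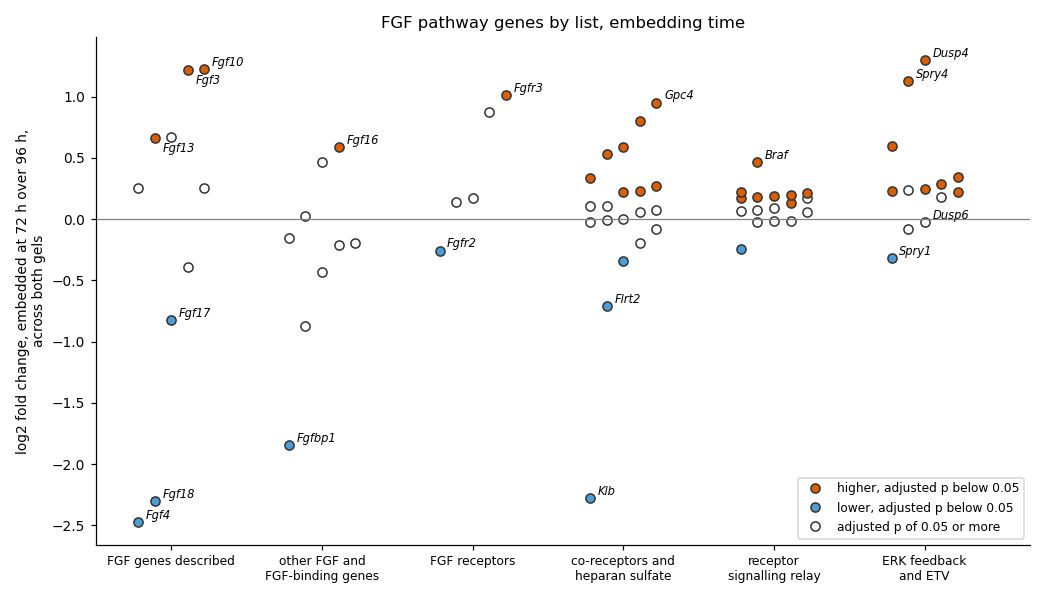
log2 fold change of embedding at 72 h over 96 h across both gels for the tested genes of each FGF list, with a point for each gene, filled where the adjusted p was below 0.05. The FGF genes described spread from -2.47 (Fgf4) to 1.22 (Fgf10), while the relay genes lie between -0.24 and 0.46.

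The genes whose levels ran most like each member that passed were found by the root-mean-square (RMS) difference in log2 CPM, centered on the mean of the 12 libraries, among 10994 genes of at least 5 CPM. For Fgf4 they were Utf1 (RMS 0.20), Dppa5a (0.26) and Dppa4 (0.49), where Fgf4 itself had an SD of 1.31. For Fgf18 (SD 1.34) they were Dmrt2 (0.56), Tcf15 (0.62) and Meox1 (0.62). For Fgf10 (SD 0.70) they were Adra2b (0.13), Cap2 (0.14) and Runx1t1 (0.17). Those of Fgf3 (SD 1.07) were Pdlim3, Prdm6 and Ripor3 (0.39 to 0.45), those of Fgf13 (SD 0.41) were Mid1ip1, Fam20c and Bicdl1 (0.13 to 0.16), and those of Fgf17 (SD 0.72) were Pla2g4c, Lat2 and Col11a2 (0.28 to 0.35). The points share libraries and groups, so this is a description only.

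**Figure D5:**
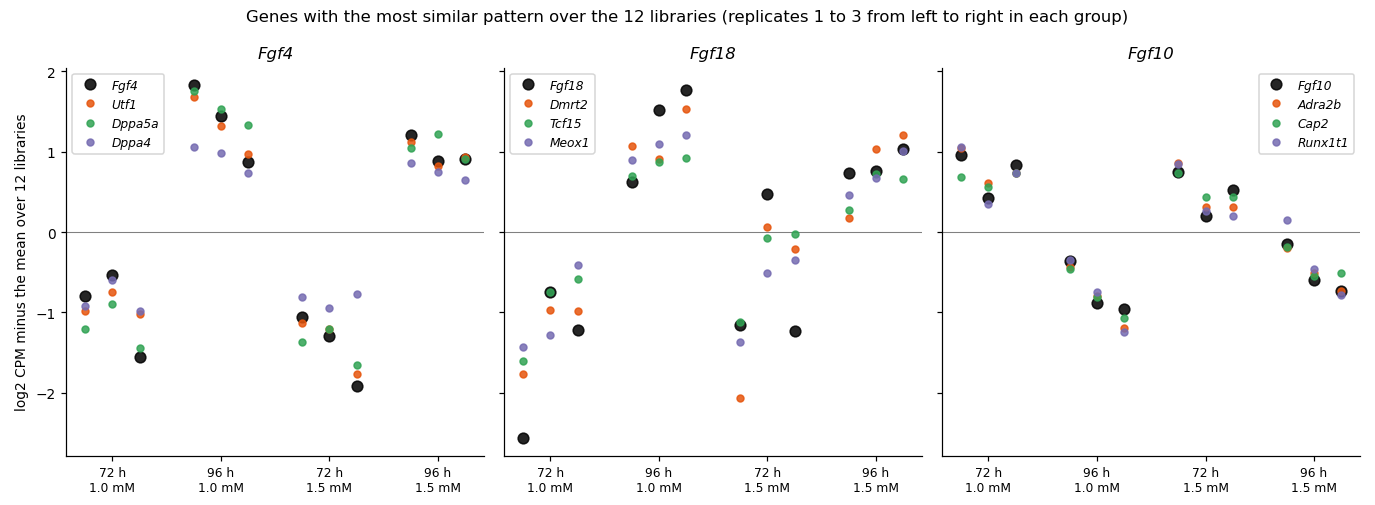
log2 CPM minus the mean over the 12 libraries for Fgf4, Fgf18 and Fgf10 and the 3 genes closest to each, by group, with a point for each library. Utf1 and Dppa5a track Fgf4 closely (RMS 0.20 and 0.26), and the genes around Fgf18 follow it with a looser spread.

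Markers of several cell types moved with embedding time beside these genes, and their part in the FGF differences was not tested. Across both gels 31.1% of all genes passed, 16.2% higher and 14.8% lower at 72 h. Naive pluripotency markers were lower at 72 h for 4 of 8 and higher for 1, led by Dppa5a (-2.60), Zfp42 (-2.39), Nanog (-1.74) and Esrrb (-1.37). Their summed CPM was 48.9 to 93.5 at 72 h against 83.0 to 115 at 96 h in 1.0 mM gels, and 64.4 to 69.3 against 84.6 to 126 in 1.5 mM gels. Somite markers fell for 8 of 9 and rose for 0, with Meox2 (-3.64), Meox1 (-1.72), Pax1 (-1.47) and Tbx18 (-1.39) in front, and their sum was 299.5 to 499 CPM against 885 to 1020 in 1.0 mM gels, and 348 to 595 against 693 to 917 in 1.5 mM gels. Cardiac and anterior mesoderm markers rose for 8 of 10 and fell for 0 (Tbx20 2.08, Tbx5 2.06, Gata4 1.95 and Nkx2-5 1.87), with sums of 673 to 1056 against 169 to 312 CPM and 570.1 to 950.2 against 305 to 487 CPM.

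The remaining lists are also read against the 31.1% of all genes that passed across both gels. Tail bud markers split, with 3 higher and 3 lower of 7 tested (T 1.298, Nkx1-2 -1.69, Cdx1 -1.67, Wnt8a -1.48) and a median log2 fold change of -0.30. Their sum was 267 to 335 against 119.6 to 173 CPM in 1.0 mM gels and 229 to 269 against 101 to 114 CPM in 1.5 mM gels. Such a sum follows the most abundant genes and does not describe the list gene by gene. Presomitic mesoderm had 1 higher (Dll3, 0.83) and 1 lower (Hes7, -1.24) of 7, neural tube 4 higher and 3 lower of 8, endoderm 2 higher and 1 lower of 8, endothelium 2 and 2 of 7, and primitive blood 2 higher of the 2 tested. Presomitic mesoderm and endoderm were thus near the share of all genes. The genes that passed in the neural tube, endoderm, endothelium and blood lists are not named. Log2 fold changes of the tested genes ran from -5.205 to 0.896 for neural tube and from -0.350 to 1.413 for endoderm. They ran from -0.949 to 0.351 for endothelium and from 0.763 to 1.848 for blood. The globin genes Hbb-bh1 and Hba-x, also of the blood list, were at 0 in both groups embedded at 72 h. Both were too low to be tested and are not among the 2 blood genes above. They are named outside the rule used for the lists.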

How the data were processed

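Per the labels and the study's methods, poly-A RNA of embedded gastruloids was sequenced in 12 stranded libraries with paired reads of 75 bp. The authors trimmed reads with cutadapt 4.4, aligned them to mm10 with STAR 2.7.10b and deposited raw read counts per gene. They computed the deposited FPKM values with Cufflinks 2.2.1.3. The authors' comparison columns (DESeq2 fold changes and adjusted p-values) were not used.

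The 36 mitochondrial genes were left out. Counts were scaled with TMM, filtered with filterByExpr (minimum count 10, minimum total 15) and tested with glmQLFit and glmQLFTest in edgeR 4.0.16 (R 4.3.3). The 4 pairwise tests used the libraries of 2 groups. Tests across both gels or times and of the interaction used all 12 libraries. The fits were tested on simulated data. Log2 CPM used a prior count of 2. An SE is the log2 fold change divided by the square root of its F.

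Alternatives were DESeq2 1.42.0, limma-voom (limma 3.58.1), RLE scaling, no filter, at least 1 CPM in 3 libraries, the replicate number as a block, all libraries in a single fit, each library left out and, chosen after seeing the data, limma on log2(FPKM + 0.1) and leaving out both libraries rich in CT010467.1. The members, gene lists and tests were chosen with earlier results of these data known. Named genes are all members, receptors and other FGF genes, and the 3 genes most like each member that passed. For the other lists they are up to 4 genes with the largest change among those that passed. The neural tube, endoderm, endothelium and blood lists are excepted, and their genes that passed are not named. Library totals were 23011791 to 27609422 counts. Counting error weighs most on Fgf18 (0 to 42 counts per library), and also on Fgf17 (10 to 68), Fgf9 (16 to 38) and Fgf4 at 72 h. Intervals cover 95%. The study calls its replicates biological. Between replicates of a group the chi-square per degree of freedom, near 1 for sampling noise alone, was 9.23 to 111. It is summed over genes in raw counts, so abundant genes weigh most. The largest values, 66.6 and 111, were pairs with replicate 1 of the 72 h, 1.5 mM group, where CT010467.1 took 6.12% of counts. The part of that gene in them was not tested.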

Additional observations from a re-analysis of the deposited data

How the results depend on the processing

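Over 838 member values recomputed under alternatives, 769 kept their direction and their side of the threshold, 23 newly passed, 17 no longer passed and 29 changed sign. Each of those 29 belonged to a difference that did not pass. The values cover every member for embedding time and for gel concentration across both times. Between gels they cover only Fgf9 and Fgf17 at 72 h and Fgf17 and Fgf18 at 96 h. For the interaction they cover Fgf3, Fgf4, Fgf9, Fgf10 and Fgf18. Fgf4 and Fgf10 kept their embedding-time calls throughout, and so did Fgf18 in 1.0 mM gels and across both gels wherever it was tested (at least 1 CPM in 3 libraries removes it). Members passing the test of embedding time in 1.0 mM gels numbered 3, and 5 without the filter on low counts (Fgf3 and Fgf15 in addition). Without that filter 4 passed in 1.5 mM gels, and 9 rather than 6 across both gels (Fgf5, Fgf8 and Fgf15 in addition). Leaving out each library gave 3 to 5 in 1.0 mM gels (5 without replicate 3 at 72 h, where Fgf3 and Fgf15 passed too), 2 to 3 in 1.5 mM gels and 4 to 7 across both (4 without replicate 3 at 96 h in 1.5 mM gel). For the gel comparisons and the interaction it gave 0 each time. Between gels across both times 1 member, Fgf17, passed without the filter. In that setting 322 and 333 of all genes passed between gels at 72 h and 96 h, against 0 in the main fits. A call gained only without the filter is therefore not counted as support here. The causes of these changes were not tested.

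The labels do not say what a shared replicate number marks. Deviations from group means correlated positively between same-numbered libraries in all 12 pairs (0.0439 to 0.302), but not above 0.1 in every pair, and not every library correlated best with its own number, so the block was kept as an alternative and whether the numbers pair the libraries is not settled. With a replicate block 5 members passed in 1.0 mM gels (Fgf3 and Fgf8 in addition), 3 in 1.5 mM gels, 7 across both gels (Fgf8 in addition) and 0 in the other tests. Over all genes the block changed the number passing from 1457 to 2122 in 1.0 mM gels, 3033 to 3885 in 1.5 mM gels, 5092 to 5955 across both gels, 0 to 43 between gels at 72 h, 0 to 289 at 96 h, 5 to 81 across both times and 0 to 5 for the interaction.

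Among the values recomputed, signs changed for Fgf15 in 1.5 mM gels (-0.62 without both libraries rich in CT010467.1, and -0.29 to 0.81 over single libraries left out). Between gels across both times they changed for Fgf3 (0.0614 with FPKM, -0.31 to 0.18 over single libraries), Fgf8 (-0.0613 to 0.0570), Fgf10 (-0.12 to 0.0781) and Fgf18 (0.11 with DESeq2, whose adjusted p was NA, 0.0454 with FPKM, 0.0794 without both libraries, -0.45 to 0.19 over single libraries). The interaction for Fgf4 was 0.0544 with FPKM and -0.37 to 0.14 over single libraries.

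Over the alternatives the number of all genes that passed was 632 to 2283 for embedding time in 1.0 mM gels (main value 1457), 1180 to 4102 in 1.5 mM gels (3033), 0 to 322 between gels at 72 h (0), 0 to 333 at 96 h (0), 0 to 512 across both times (5) and 0 to 238 for the interaction (0). Ordering the 10 members by median FPKM kept 7 ranks. Low counts limit Fgf18, Fgf9 and Fgf17 most.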
